A study of Mus musculus with 16 samples.

Results

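The data described here are the RNA polymerase II (Pol II) peaks of mouse embryonic stem cells (mESCs), wild type (WT, Atxn7l3+/+) against Atxn7l3-/-, which lack the adaptor that activates the histone H2B deubiquitylases USP22, USP27X and USP51. All peaks on the 19 autosomes in the Pol II list of each genotype were taken, 28557 of the 245651 peaks in the 8 peak lists of the series: 16925 from WT and 11632 from Atxn7l3-/- mESCs. The series holds 16 samples, and its lists cover Pol II and ubiquitylated H2B (H2Bub1) in mESCs and in mouse embryonic fibroblasts (MEFs). Both mESC lines came from E3.5 blastocysts of matings between heterozygous mice, on a mixed DBA/2 x C57BL/6 background. The null allele derives from a construct with loxP sites around exon 2 to exon 12. The cells were grown with leukaemia inhibitory factor, 15% serum, 1 uM PD0325901, which inhibits MEK, and 3 uM CH99021, which inhibits GSK3, first on feeder cells and then without them. Chromatin was precipitated with an antibody against the C-terminal domain of RPB1, the largest Pol II subunit. There was 1 library per genotype, so no difference given here has a replicate check, no test was run, and the 95% intervals cover counting error within a list only.

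Pol II is recruited to promoters by general transcription factors and Mediator, opens the DNA and, at most genes of animals, pauses shortly after the start site until P-TEFb releases it. It then runs through the gene body, and beyond the site where the transcript is cleaved, before it leaves the template. For that reason ChIP-seq of total Pol II gives a sharp peak at the promoter, a thin signal over the gene body and, at strongly transcribed genes, a broad one after the gene end. H2Bub1 is placed along transcribed gene bodies by RNF20 and RNF40, in step with elongating Pol II, and the deubiquitylation module of SAGA, of which ATXN7L3 is part, removes it.

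A promoter was counted as bound when a peak covered at least 1 bp within 1000 bp of the start of a protein-coding gene of GENCODE M21 (mm10, GRCm38). A bound promoter was called kept when both genotypes had a peak there, lost when WT alone did and gained when Atxn7l3-/- alone did. These words describe the lists and not the amount of Pol II. The fold of a bound promoter is the highest among the peaks that reach into this window, and the summit of such a peak can lie outside it. The number given for a peak is its fold enrichment over the local background of its own library, which sets no level across libraries, and the files give no read depth. The study scaled its Pol II libraries by their total mapped reads, and the number of reads used in peak calling is not given in the sources used here.

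To show what such promoters look like, the sequences from 250 bases before to 50 bases after the start site are printed for 6 genes (RefSeq, GRCm38, gene strand, 5′ to 3′). Gab1 (chr8:80880470-80880769, minus strand) and Zfp281 (chr1:136624651-136624950, plus strand) were the lost promoters with the highest WT fold among those without any Atxn7l3-/- peak within 5000 bp. Hspb8 (chr5:116422815-116423114, minus) was among the corresponding gained promoters. Hist1h1c (chr13:23738558-23738857, plus) and Hist1h1a (chr13:23763416-23763715, plus) were among the strongest kept promoters, and Ddit4 (chr10:59951785-59952084, minus) had the highest Atxn7l3-/- over WT ratio of fold. Capitals mark every match, on either strand, to the letters TATAAA of a core promoter box, CCAAT of the box that NF-Y binds, GGGCGG of the GC box bound by Sp1, CCGGAAG of ETS factor sites, AAGATGGC of YY1 sites, TGACGTCA of the cyclic AMP response element, CACGTG of the E-box, CATGCGC of the NRF1 core, and the palindrome TCGCGAGA.
Gab1: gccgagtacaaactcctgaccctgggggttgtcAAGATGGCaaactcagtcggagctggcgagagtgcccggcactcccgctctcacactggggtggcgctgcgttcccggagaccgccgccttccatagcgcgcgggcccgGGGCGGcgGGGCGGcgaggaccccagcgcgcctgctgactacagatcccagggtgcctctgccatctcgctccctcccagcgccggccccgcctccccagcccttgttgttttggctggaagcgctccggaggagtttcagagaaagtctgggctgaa
Zfp281: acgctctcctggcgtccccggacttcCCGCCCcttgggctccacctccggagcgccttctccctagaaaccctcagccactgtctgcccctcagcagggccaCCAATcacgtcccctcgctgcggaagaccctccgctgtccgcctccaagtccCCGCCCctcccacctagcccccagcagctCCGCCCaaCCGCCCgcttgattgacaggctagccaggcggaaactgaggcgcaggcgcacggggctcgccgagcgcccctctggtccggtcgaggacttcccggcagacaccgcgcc
Hspb8: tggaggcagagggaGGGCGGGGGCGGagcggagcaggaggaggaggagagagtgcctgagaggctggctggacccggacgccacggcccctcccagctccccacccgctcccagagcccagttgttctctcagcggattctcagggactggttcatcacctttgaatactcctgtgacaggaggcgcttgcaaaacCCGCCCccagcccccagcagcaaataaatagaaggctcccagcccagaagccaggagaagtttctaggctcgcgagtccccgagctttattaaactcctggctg
Hist1h1c: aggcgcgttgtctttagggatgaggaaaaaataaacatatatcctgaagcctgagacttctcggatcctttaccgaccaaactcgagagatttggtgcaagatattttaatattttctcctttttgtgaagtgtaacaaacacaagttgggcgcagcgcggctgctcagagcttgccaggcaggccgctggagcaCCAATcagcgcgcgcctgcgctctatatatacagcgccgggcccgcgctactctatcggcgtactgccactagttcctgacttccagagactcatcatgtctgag
Hist1h1a: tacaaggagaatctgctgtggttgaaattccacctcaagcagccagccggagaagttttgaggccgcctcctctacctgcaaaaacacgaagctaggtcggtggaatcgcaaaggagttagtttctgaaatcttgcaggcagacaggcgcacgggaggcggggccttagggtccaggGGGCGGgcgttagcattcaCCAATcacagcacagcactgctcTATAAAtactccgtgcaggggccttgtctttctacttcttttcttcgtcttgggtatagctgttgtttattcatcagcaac
Ddit4: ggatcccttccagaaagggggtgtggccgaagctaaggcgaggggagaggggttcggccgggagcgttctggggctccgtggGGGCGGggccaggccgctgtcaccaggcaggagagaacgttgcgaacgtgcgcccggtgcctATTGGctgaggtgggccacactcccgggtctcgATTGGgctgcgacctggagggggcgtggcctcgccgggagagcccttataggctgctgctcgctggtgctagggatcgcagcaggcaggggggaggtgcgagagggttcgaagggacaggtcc

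The share of G and C was 68.0% at Gab1, 70.7% at Zfp281, 62.3% at Hspb8 and 69.0% at the kept Ddit4, and these windows held 26, 27, 13 and 23 CpG dinucleotides. All 4 carried GC boxes and no TATA box by these letters. Over all genes of a class, the median share was 62.3% at kept, 59.7% at lost and 61.3% at gained promoters. The Hist1h1a window held a TATA box, a CCAAT box and a GC box, and that of Hist1h1c a CCAAT box. Of the 300 bases, the WT peak covered 103 at Gab1 and 300 at Zfp281, and the Atxn7l3-/- peak covered 257 at Hspb8. The histone and Ddit4 windows lay wholly inside the peaks of both lists.

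The targeted gene was examined first. Atxn7l3 lies at chr11:102289300-102296631 on the minus strand. Its promoter had a peak in both lists, with a fold of 3.61 in WT and 3.71 in Atxn7l3-/- mESCs and summits 430 and 513 bp before the start site. Peaks covered 3047 bp of its gene body in WT and 2227 bp in Atxn7l3-/-. The main gene body peak had a fold of 7.36 in WT (chr11:102290761-102292553) and of 5.77 in Atxn7l3-/- (chr11:102290536-102292274), and its summit lay in exon 13 in both. In the span from exon 2 to exon 12 of the annotated 13-exon transcript, these peaks reached over 656 bp and 377 bp of 3162 bp. The Atxn7l3-/- peak reached over exons 12 and 11 of this transcript. The study placed its loxP sites around exons of these numbers, but which transcript it numbered is not given in the sources used here. The peaks therefore did not settle the genotype, and Atxn7l3-/- is used here as the label of the library. The study had other evidence for it. It genotyped its mESCs, detected no ATXN7L3 protein in the Atxn7l3-/- cells and reported raised global H2Bub1 in them. H2Bub1 peaks covered 100% of the gene in WT and 62.5% in Atxn7l3-/- mESCs.

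The cell type label was checked against marker genes. Of 20 pluripotency genes, 14 had a kept promoter, 1 a lost one and 5 none. Pou5f1, the central factor of the pluripotency network, had 5.01 in WT and 3.55 in Atxn7l3-/-, Nanog 4.64 and 3.55, Sox2 7.33 and 9.41, and Tfcp2l1, a naive state factor, 12.4 and 16.6. None of 14 fibroblast genes had a promoter peak in either list. Acta2, an actin of smooth muscle and myofibroblasts, had 541 and 501 bp of peak in its body, and Col1a1 had 299 bp in WT only. Of 16 early germ layer genes, Gsc and Nes had kept promoters, Sox1 a lost one, and the other genes had none. None of 19 genes of the 2-cell stage was bound, and of 1413 olfactory and vomeronasal receptor genes, silent outside sensory neurons, only Vmn1r4 had a promoter peak, in WT.

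The WT list was longer and its peaks were wider. WT peaks covered 12.4 Mb with a median width of 531 bp, and Atxn7l3-/- peaks covered 7.44 Mb with a median width of 495 bp. The median fold was 3.73 in WT (range 1.33 to 44.9) and 4.12 in Atxn7l3-/- (1.33 to 41.6), and the median -log10 p 8.71 and 9.44. Peaks with the summit in a promoter numbered 6656 in WT and 6080 in Atxn7l3-/-. Peaks in gene bodies numbered 5674 and 3023, those in the 5000 bp after a gene end 2242 and 1041, and those elsewhere 2353 and 1488. Atxn7l3-/- over WT numbers therefore stood at 0.913 for promoters and 0.541 for all other places. With the WT list reduced to its 11632 strongest peaks by -log10 p, the WT numbers were 5412 in promoters, 3237 in gene bodies, 1480 after gene ends and 1503 elsewhere. At equal numbers the Atxn7l3-/- list thus held more promoter peaks, and fewer after gene ends, than the WT list.

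Peaks of the WT list were found again in Atxn7l3-/- mostly at promoters. An Atxn7l3-/- peak overlapped 73.9% of the WT promoter peaks (72.8 to 74.9%), 28.9% of those in gene bodies (27.7 to 30.1%), 30.5% of those after gene ends (28.6 to 32.4%) and 32.9% of those elsewhere (31.0 to 34.9%). In the other direction the shares were 82.4%, 61.9%, 77.1% and 60.8%. Peaks in promoters were also stronger, with a median fold of 4.28 against 3.44 in gene bodies of WT, so the list was split into equal quintiles by -log10 p. The gap between promoters and gene bodies stood in every quintile. In the weakest quintile, 42.4% of the WT promoter peaks (38.7 to 46.1%) and 10.4% of the gene body peaks (8.96 to 11.99%) had an Atxn7l3-/- counterpart. The middle quintile gave 58.9% and 25.1%, and the strongest 97.5% and 87.8%. With equal numbers of peaks the order was the same, with 51.4% and 15.6% in the weakest quintile and 99.1% and 94.3% in the strongest.

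**Figure D1:**
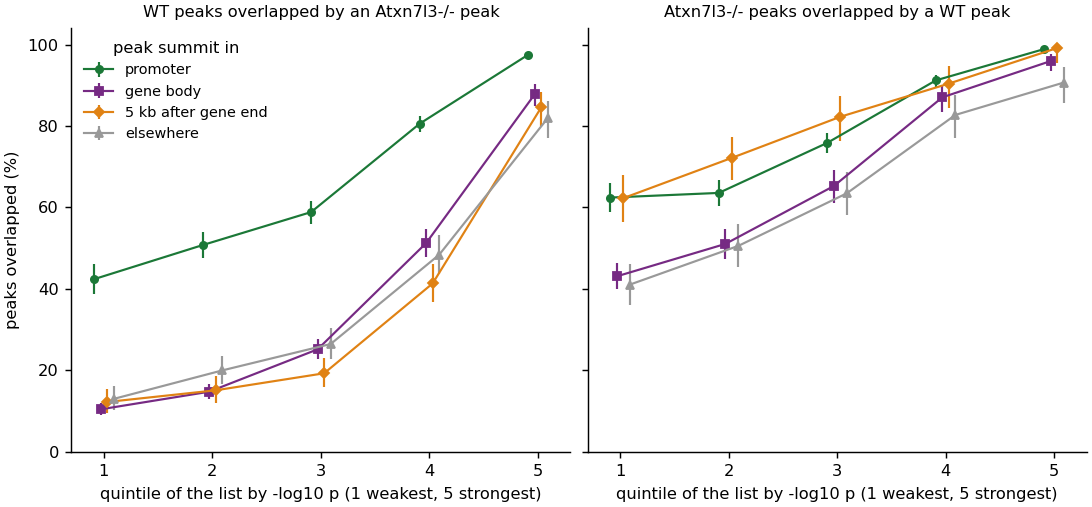
Share of Pol II peaks overlapped by a peak of the other genotype (y axis, %) against the quintile of the list by -log10 p (x axis), for WT peaks (left) and Atxn7l3-/- peaks (right), coloured by the place of the summit. Bars are exact 95% intervals. WT promoter peaks run from 42.4 to 97.5% and stand above gene body peaks, which run from 10.4 to 87.8%, in all 5 quintiles.

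Promoters were then compared gene by gene. Of 20807 autosomal protein-coding genes, 7336 had a promoter peak in WT and 6672 in Atxn7l3-/-. Of these, 5663 were kept, 1673 lost and 1009 gained, and 12462 genes had a peak in neither. Lost promoters were 22.8% of the WT promoters (21.8 to 23.8%) and gained ones 15.1% of the Atxn7l3-/- promoters (14.3 to 16.0%). At equal peak numbers the balance turned: 1104 promoters, 17.9% of 6177, were lost and 1599, 24.0% of 6672, were gained. Which genotype had more promoters of its own therefore depended on the number of peaks called. No peak of the other genotype lay within 5000 bp of the start site at 1481 of the lost and 891 of the gained promoters. The median distance to the nearest one was 30991 bp for lost and 31234 bp for gained promoters.

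Lost and gained promoters were weak ones. The median WT fold was 4.79 at kept promoters and 3.60 at lost ones (quartiles 3.21 and 4.12, highest 12.4), and the median Atxn7l3-/- fold at gained promoters was 3.78 (highest 7.89). From the weakest to the strongest quintile of WT fold, 42.7%, 39.3%, 21.3%, 9.75% and 0.954% of promoters were lost, so that 14 of 1467 were lost in the strongest. By quintile of the Atxn7l3-/- fold, 28.4%, 25.9%, 15.6%, 5.10% and 0.600% were gained, the last being 8 of 1334. Both series share their peak lists with the calls, so they describe where the calls fell. The summit lay a median of 73 bp after the start site at kept promoters in both genotypes, 78 bp at lost and 80 bp at gained ones. Within kept promoters the summit moved by a median of 90 bp between the lists, by less than 50 bp at 32.3% and by over 500 bp at 5.99% of them.

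Among the lost promoters without an Atxn7l3-/- peak nearby, the 10 with the highest WT fold were Gab1 (7.32), a docking adaptor of receptor tyrosine kinases, Zfp281 (7.16), a zinc finger factor of the pluripotency network, Pan2 (6.78), the nuclease of a deadenylase, Mpv17 (6.66), an inner mitochondrial membrane protein, Vcpkmt (6.44), Ddah2 (6.44), Vps4b (6.15), an ATPase of the ESCRT machinery, Gpbp1l1 (6.15), Ppp2r3d (6.15) and Timm44 (6.10), a part of the mitochondrial import motor. All 10 were also lost with equal numbers of peaks. That setting drops only the weakest WT peaks and leaves the Atxn7l3-/- list whole, so strong lost promoters could hardly change class there. All 10 had a promoter peak in both MEF lists, against 85.7% of all lost promoters in WT MEFs and 80.9% in Atxn7l3-/- MEFs. At Zfp281 the nearest Atxn7l3-/- peak lay 209303 bp away and at Gab1 140687 bp. Gab1 and Timm44 are on chromosome 8, which is treated further on. A higher WT fold stood at Hnrnpl (11.3), which encodes a splicing regulator, with its summit 2398 bp after the start. An Atxn7l3-/- peak lay just outside its promoter window, and its gene body was bound in both lists, over 4635 bp in WT and 1321 bp in Atxn7l3-/-.

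Among the 10 gained promoters with the highest Atxn7l3-/- fold and no WT peak nearby were those of Plxna1 (7.89), a semaphorin receptor, Hspb8 (7.11), a small heat shock protein, Msc (7.10), a bHLH repressor, Grik3 (6.81), a kainate receptor subunit, Susd6 (6.39), Ptgfrn (6.28), Adam22 (6.21), Cpne2 (6.21) and Me1 (6.17), the cytosolic malic enzyme. The nearest WT peak lay 20651 bp away at Hspb8, 47340 bp at Plxna1 and 445902 bp at Msc. In MEFs, 8 of these 10 promoters were bound in WT and 7 in Atxn7l3-/-, and those of Msc and Grik3 were bound in neither. Over all gained promoters the shares were 89.4% in WT and 86.4% in Atxn7l3-/- MEFs. H2Bub1 peaks covered 38.4% of Hspb8 in WT and 100% in Atxn7l3-/- mESCs, and 9.72% and 67.6% of Grik3.

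At kept promoters the fold differed little in the middle and widely at single genes. The median log2 ratio of Atxn7l3-/- to WT fold was 0.0221 (0.0075 to 0.0357) with quartiles at -0.30 and 0.33, and the ratio was above 0 at 2956 of 5663 promoters. Against the reduced WT list the median was -0.03. From the weakest to the strongest quintile of WT fold, the median fell from 0.44 to -0.25, a series that shares the WT fold with the ratio. Only 98 promoters, 1.73%, had an Atxn7l3-/- fold at least 2 times that of WT, and 95, 1.68%, had at most 1/2 of it. Across kept promoters, which are not independent samples and include neighbours under 1 peak, Spearman's rho between the folds was 0.529 and Pearson's r of the log2 folds 0.642.

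By WT fold, the strongest kept promoters belonged to histone genes, while the highest Atxn7l3-/- fold was that of Gtf3c6, a TFIIIC subunit (21.9 and 39.6). Hist1h1c, which encodes linker histone H1.2, had 44.9 in WT and 22.9 in Atxn7l3-/-, and Hist1h1b 35.2 and 21.8. Hist1h3a and Hist1h1a lay under shared peaks, with 35.8 in WT and 36.7 in Atxn7l3-/-, the WT summit nearer to Hist1h3a and the Atxn7l3-/- summit nearer to Hist1h1a, and Hist1h4a, under the same WT peak, had 21.4 in Atxn7l3-/-. The highest ratio was that of Ddit4, an inhibitor of mTORC1 that responds to stress, with 2.74 in WT and 9.86 in Atxn7l3-/- (log2 1.85). Atp5g1, subunit c of ATP synthase, followed with 2.17 and 6.81, then Uqcrb, a subunit of complex III, with Gm10767 under the same peaks (2.32 and 7.10), and Crtc3, a coactivator of CREB (2.38 and 7.10). The weak WT peaks of these 4 genes dropped out with equal numbers, where they counted as gained. The lowest ratios by this rule were those of Nek8 and Tlcd1, divergent neighbours under shared peaks (15.0 and 3.58), and of Slc35b2, a Golgi sulphate donor transporter (21.1 and 5.40), but they set unlike places side by side. The WT summit lay in the gene body, 2288 bp after the start of Tlcd1 and 2677 bp after that of Slc35b2, and the Atxn7l3-/- summit 822 and 491 bp after it, while the body of Tlcd1 was covered over 3600 and 3172 bp and that of Slc35b2 over 2798 and 2740 bp. With both summits within 1000 bp of the start, which held at 5411 kept promoters and was checked after seeing the data, the median log2 ratio was 0.0284, and 96 promoters had at least 2 times the WT fold and 85 at most 1/2 of it. Summits 99 bp after the start in both lists stood at Lima1, an actin binding protein, with 11.1 and 3.22, and Srcap, the ATPase that deposits H2A.Z, had 9.57 and 3.29 with summits 67 and 59 bp after the start.

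**Figure D2:**
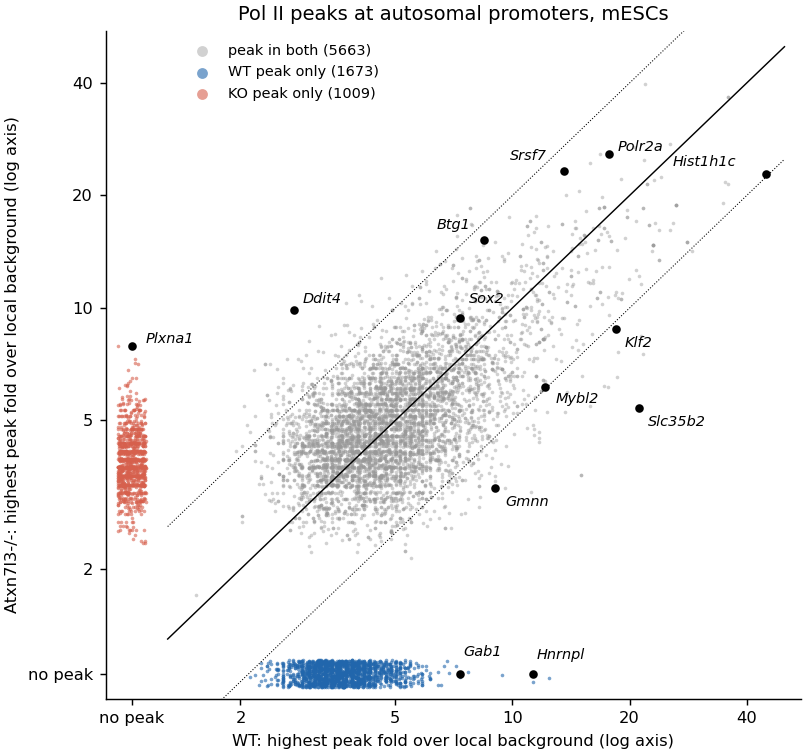
Highest fold over local background among the Pol II peaks that reach within 1000 bp of each start site, in WT (x axis, log scale) against Atxn7l3-/- (y axis, log scale), 1 point per autosomal protein-coding gene. Grey points are the 5663 kept promoters, blue the 1673 lost and red the 1009 gained ones, placed at "no peak" with random scatter. Solid and dotted lines mark equal fold and a 2 times difference, which 98 promoters pass above and 95 below.

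Readouts that had no part in the promoter calls were set beside the classes. In WT MEFs, 97.2% of the kept promoters, 85.7% of the lost and 89.4% of the gained ones carried a Pol II peak, against 29.3% of the promoters without a peak in mESCs. Of the WT mESC promoters bound in WT MEFs too, 20.6% were lost (19.7 to 21.6%), and of those not bound there, 60.6% (55.6 to 65.4%). The median WT fold of the latter was lower, 3.53 against 4.44, and the part of this in the result was not tested. H2Bub1 lay on 93.9% of the genes with a kept promoter in WT mESCs, on 85.2% of those with a lost one and on 81.2% of those with a gained one. The median share of the gene covered by H2Bub1 was 19.8% in WT and 43.1% in Atxn7l3-/- for kept promoters, 11.4% and 29.8% for lost ones and 8.69% and 33.6% for gained ones. H2Bub1 cover was higher in Atxn7l3-/- than in WT at 78.4% of the genes that lost the Pol II peak, 84.7% of those that kept it, 91.0% of those that gained it and 34.1% of those bound in neither list, of which 32.3% carried H2Bub1 in WT. The H2Bub1 list of Atxn7l3-/- held 1.17 times as many peaks as that of WT and was not reduced to equal numbers. Promoters that had another gene starting on the opposite strand within 1000 bp were lost in 19.97% of cases (18.03 to 22.03%), others in 23.6% (22.5 to 24.7%). By gene length, from under 5 kb to over 100 kb, 10.2%, 14.4%, 16.8%, 15.0% and 18.8% of the Atxn7l3-/- promoters were gained and 23.0%, 25.6%, 22.0%, 18.2% and 22.5% of the WT ones lost, and the median log2 ratio of kept promoters ran from -0.05 to 0.13.

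The promoter sequences were also independent of the calls. Kept promoters held a median of 23 CpG in the 300 base window, gained ones 21, lost ones 18 and unbound ones 5, and 12 over all genes. Within each of the 4 lower quintiles of WT fold, kept promoters had 22 to 24 and lost ones 18 or 19. A GC box (GGGCGG or CCGCCC), as printed for Hspb8, occurred in 43.7% of all promoters, in 68.4% of the kept, 59.3% of the lost and 67.0% of the gained ones. TATAAA (or TTTATA) occurred in 12.7% of all, 6.66% of the kept and 6.10% of the lost ones. The palindrome TCGCGAGA was in 1.35% of all promoters and 3.71% of the kept ones. Of 236 WT-bound promoters with it, 26 or 11.02% were lost (7.32 to 15.7%), against 23.2% of those without it, and their median WT fold was higher, 5.45 against 4.37. Promoters with the YY1 site AAGATGGC (or GCCATCTT), as in Gab1, were lost in 18.7% of cases (15.0 to 22.9%) and those without it in 23.0%, so the interval includes the 22.8% lost over all promoters. Of all promoters, 2.93% held this site. The shares of lost promoters with and without CCAAT or ATTGG, present in 38.6% of all promoters, were 22.7% and 22.9%. A match is a run of letters in this window and no measured binding.

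Gene bodies lost more of their peaks than promoters. A gene body was taken from 1000 bp after the start to the gene end, in the 19408 genes of at least 2000 bp. Peaks lay in 4271 bodies in WT and 2770 in Atxn7l3-/-. Of these, 2237 were kept, 2034 lost, which is 47.6% of the WT bodies (46.1 to 49.1%), and 533 gained, which is 19.2% of the Atxn7l3-/- bodies (17.8 to 20.8%). With equal numbers of peaks the lost bodies still outnumbered the gained ones, 1161 (37.4%) against 824 (29.7%). Where a body was kept, peaks covered a median of 975 bp of it in WT and 588 bp in Atxn7l3-/-, and more of it in WT at 1699 of 2237 genes (with equal numbers, at 1412 of 1946). Summed over genes, peaks covered 4518 kb of gene bodies in WT and 2168 kb in Atxn7l3-/-, a ratio of 0.480, or 0.644 with equal numbers. Of the bodies bound in WT, 43.9% were lost where the promoter peak was kept (41.7 to 46.2%) and 59.6% where it was lost (55.2 to 63.9%). At 837 genes the promoter stayed bound in both lists while the body peak was in WT only. A wide promoter peak that reached past 1000 bp counted as a body peak too. At 1000 bp after the start, 14.8% of the kept promoters lay inside a WT peak and 10.9% inside an Atxn7l3-/- peak. With the summit required in the body, 1816 bodies were kept, 1897 lost and 553 gained.

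Among bodies with the largest difference, that of Etv5, an ETS factor downstream of FGF signalling, was covered over 9406 bp in WT and 1241 bp in Atxn7l3-/-, while its promoter had 4.55 and 4.46. Mybl2, a cell cycle transcription factor, had 8336 and 1604 bp, and Ywhag, a 14-3-3 protein, 7675 and 294 bp. Gse1, on chromosome 8, had 11985 and 3666 bp. Gm20388, with 94378 and 37589 bp, is a model on chromosome 8 that spans many other genes, so its length is that of several genes. The opposite order was seen at Car8, a carbonic anhydrase-related protein, with 507 bp in WT and 5788 bp in Atxn7l3-/-, and its body held the strongest Atxn7l3-/- peak without a WT counterpart (fold 11.6). St6galnac4, a sialyltransferase, had 0 and 4605 bp, Ak4, a mitochondrial adenylate kinase, 302 and 4019 bp, Ccdc93 0 and 3462 bp and Ptprt 831 and 4126 bp. Long bodies common to both lists were those of Zmynd8, a chromatin reader (12175 and 10331 bp), Slc25a12, a mitochondrial carrier (12006 and 8622 bp), Spats1 (9288 and 11178 bp), and the gene models a (15828 and 15347 bp) and Fgfr2 (10332 and 10585 bp), which overlap other genes.

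Gene ends were compared gene by gene as well. Peak by peak, WT peaks after gene ends had been found again about as often as those in gene bodies, 30.5% and 28.9%. By strength these shares were 12.2% and 10.4% in the weakest quintile and 19.3% and 25.1% in the middle one. For Atxn7l3-/- peaks they were 77.1% and 61.9%. To keep neighbours out, 9029 genes with a body and at least 5000 bp to the next gene were used. Peaks lay within 5000 bp after the end of 879 of these in WT and of 427 in Atxn7l3-/-. Of these, 349 were kept, 530 lost, or 60.3% (57.0 to 63.5%), and 78 gained, or 18.3%. With equal numbers of peaks, 334 were lost (51.2%) and 109 gained. The covered length was 951 kb in WT and 352 kb in Atxn7l3-/-, a ratio of 0.370, or 0.456 with equal numbers. At the 349 kept gene ends the median covered length was 1423 bp in WT and 695 bp in Atxn7l3-/-, and it was longer in WT at 297. The gap was also present where the promoter was kept. Of those 1872 genes, 28.2% had a peak after their end in WT and 15.0% in Atxn7l3-/-, and 53.5% of the WT ones were lost (49.1 to 57.8%). From the weakest to the strongest quintile of WT promoter fold, 71.6%, 50%, 59.1%, 52.9% and 44.6% were lost.

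These 1872 genes were chosen for a promoter peak in both lists, so the likeness of the lists at the start is set by that choice, and the shares further along are not. At the start site, 83.9% of the genes lay inside a WT peak and 81.6% inside an Atxn7l3-/- peak. In the middle of the gene body the shares were 1.44% and 1.07%. At the gene end they were 2.99% and 1.18%, at 1000 bp after it 10.3% and 4.75%, at 3000 bp 6.57% and 1.76%, and at 5000 bp 3.85% and 0.908%. In the reduced WT list the shares were 76.2% at the start, 8.49% at 1000 bp and 3.47% at 5000 bp after the end. Peaks were narrower in Atxn7l3-/- at promoters as well, since 500 bp before the start 22.2% of the genes lay in a WT peak and 15.1% in an Atxn7l3-/- peak. A deeper library gives wider peaks, and the part of depth in these differences was not tested, since the files give none.

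**Figure D3:**
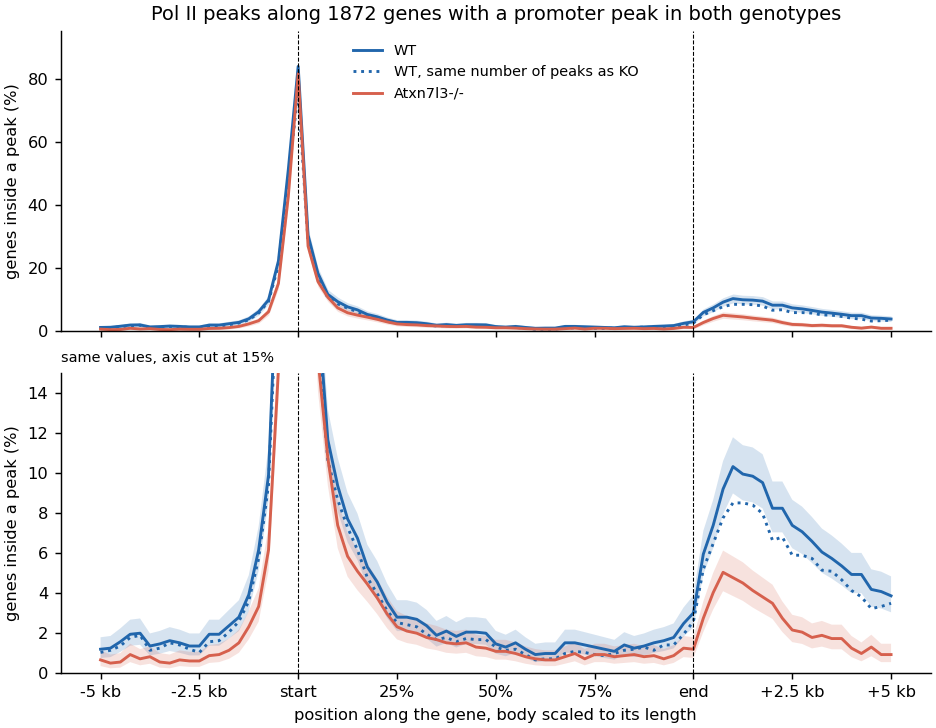
Share of 1872 genes with a kept promoter and no neighbour within 5000 bp that lie inside a Pol II peak (y axis, %), along the gene with its body scaled to equal length (x axis), for WT, WT with as many peaks as Atxn7l3-/-, and Atxn7l3-/-. The lower panel shows the same values up to 15%, with exact 95% intervals as bands. At 1000 bp after the gene end the shares are 10.3% in WT, 8.49% in the reduced WT list and 4.75% in Atxn7l3-/-.

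The genes named next were chosen after their values were seen, from those with the largest differences in covered length in the 5000 bp after the end, in either direction. Lefty2, a Nodal antagonist of mESCs, had 3773 bp covered in WT and 0 in Atxn7l3-/-, and its promoter peak (5.15) was lost. Ankrd36 had 3879 and 0 bp. At Sf1, a splicing factor for branch points, the promoter had 7.63 and 6.64 while 3086 and 0 bp were covered after the end. Ppp1cc, a phosphatase subunit, had promoter folds of 6.44 and 6.19 and 2773 and 0 bp. Epop, a Polycomb partner in mESCs, had 4111 and 926 bp, Cbx1, heterochromatin protein 1 beta, 3622 and 648 bp, Tmem123 4615 and 987 bp, and Naa40 3737 and 317 bp. Rps3a1, a ribosomal protein gene, had 4786 and 1886 bp. The opposite order was seen at Saa4 (731 and 3601 bp), Clec4a1 (0 and 1753 bp), Tex19.1 (1459 and 2938 bp), Azin2 (1822 and 3121 bp) and Tfap2c (0 and 1106 bp), a factor of trophoblast and germ cells. Among cytosolic ribosomal protein genes, the 5000 bp after the end were bound at 12 of 13 in both lists, with 38.1 kb covered in WT and 24.1 kb in Atxn7l3-/-, and more in WT at 11 of these 12.

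Gene families were read against the share of all WT promoters lost, 22.8%, and of all WT gene bodies lost, 47.6%. For gained ones the shares over all genes were 15.1% of the Atxn7l3-/- promoters and 19.2% of the Atxn7l3-/- bodies. With equal numbers of peaks these were 24.0% and 29.7%. Among genes of protein synthesis, promoters of the cytosolic ribosomal proteins were nearly all kept: 70 of 75 were kept and 1 was lost, 1.41% of the WT-bound ones (0.04 to 7.60%). Their median WT fold was 8.0, in a range where few promoters of any kind were lost. Rpl41 had 17.9 in WT and 15.1 in Atxn7l3-/-, with summits 1554 and 1416 bp after the start, beyond its end. Rps12 had 16.1 and 16.3, and Rps20 16.3 and 14.3. Rpl18 lost its promoter peak (4.37) while its body was bound in both. Their bodies stood nearer to the background, with 28 kept, 16 lost and 1 gained. Of the mitochondrial ribosomal proteins, 43 promoters were kept, 11 lost and 5 gained, and of their bodies 3 were kept, 12 lost and 4 gained. Translation factors had 40 kept, 5 lost and 3 gained promoters, with Eif4a2, an RNA helicase of initiation, at 20.8 and 17.1. Aminoacyl-tRNA synthetases had 24 kept and 4 lost promoters, but 5 kept and 11 lost bodies.

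Replication-dependent histone genes, which are transcribed in S phase and lack introns, had 60 kept and 2 lost promoters of 67, under 38 distinct WT peaks. Their median fold was 17.2 in WT and 15.1 in Atxn7l3-/-, and the WT value was the higher at 44 of the 60, against 2707 of all 5663 kept promoters. The median log2 ratio was -0.21 at the histone genes and -0.25 over all kept promoters in the strongest quintile of WT fold. The lost ones were Hist3h2ba (5.08) and Hist1h1t (3.19), the testis H1. These gene clusters hold near-identical copies, among which short reads cannot always be placed. H2Bub1 at the same genes was looked at after their values had been seen. Of the 60 histone genes with a kept promoter, 36 carried an H2Bub1 peak in WT mESCs and 9 in Atxn7l3-/-, and the covered share was lower in Atxn7l3-/- at 34 and higher at 0. Hist1h1a and Hist1h1c were covered over 100% in WT and 0% in Atxn7l3-/-, and Hist1h1b over 98.7% and 0%. Among the 189 other genes under 2000 bp with a kept promoter, 168 had H2Bub1 in WT and 184 in Atxn7l3-/-, with higher cover in Atxn7l3-/- at 117 and lower at 16.

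Families of metabolism and protein quality had between 13.8% (chaperones) and 27.7% (respiratory chain) of their WT promoters lost. Respiratory chain subunits had 34 kept, 13 lost and 8 gained promoters, among them Cyc1, cytochrome c1, lost at 6.00, and Atp5g3, another ATP synthase subunit c gene, gained at 5.52. Proteasome subunits had 19 kept, 6 lost and 3 gained promoters. Chaperones had 50 kept, 8 lost and 6 gained ones. Hspa8, the constitutive HSP70, had 13.2 and 8.76, and Hsp90aa1, the inducible HSP90, was gained at 4.71. The nearest WT peak lay 4580 bp from that start, and the Hsp90aa1 body was bound in both lists, over 1885 and 1500 bp. Glycolysis genes had 12 kept, 3 lost and 1 gained promoters, with Gapdh at 11.6 and 9.45. Of the cholesterol synthesis genes, 12 were kept, 4 lost and 4 gained. Hmgcs1 (3.83) and Cyp51 (3.60) were lost, and Idi1 (4.73) and Sqle (4.24), enzymes of the same pathway, were gained.

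The transcription machinery was next. Of 13 Pol II subunit genes, 8 promoters were kept and 3 lost, and the 3 bodies bound in WT, those of Polr2a (847 bp), Polr2c (2452 bp) and Polr2j (307 bp), were all lost. Polr2a, which encodes RPB1, had 17.7 in WT and 25.8 in Atxn7l3-/-. Of 32 pausing and elongation factors, 23 were kept, 4 lost and 3 gained. Hexim1, the inhibitor of P-TEFb, had 11.5 and 17.6, and Cdk12, a serine 2 kinase, 8.38 and 14.7. Supt6 (4.46), Ccnt1 (3.44), Nelfcd (2.95) and Nelfe (2.81) were lost. Against the reduced WT list, only Supt6 of these 4 still counted as lost. The PAF1 complex genes Leo1 (4.93) and Wdr61 (4.73) and the cyclin gene Ccnk (4.32) were gained. TFIID and Mediator subunits had 22 kept, 7 lost and 0 gained promoters, and 17, 5 and 5 with equal numbers of peaks. Taf3 (4.78), which reads H3K4me3, was among the lost ones. Splicing factors had 50 kept, 6 lost and 4 gained promoters, and 23 kept, 5 lost and 4 gained bodies. Srsf7, an SR protein, had 13.6 and 23.2, and Srsf2 16.7 and 18.5.

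Genes of the H2B ubiquitylation and SAGA machinery, to which ATXN7L3 belongs, had 13 kept, 2 lost and 3 gained promoters of 22. Kat2a and Kat2b, the acetyltransferases of SAGA and its relative complex, had 5.13 and 4.54, and 6.44 and 4.32. Atxn7l2 had 5.89 and 6.90. Atxn7l3b (3.56) and the SAGA core gene Supt20 (3.22) were lost, and Supt20 was bound in neither list with equal numbers. Supt3 (4.28), Tada2b (4.26) and Tada3 (3.75), further SAGA subunits, were gained. The ubiquitin-specific proteases had 20 kept, 6 lost and 2 gained promoters, with Usp48 at 11.6 and 9.16. Among other chromatin regulators, the COMPASS and DOT1L list had 12 kept and 1 lost (Kmt2a, 4.24). The WT fold was the higher at 10 of the 12 (2707 of 5663 over all genes), with a median log2 of -0.37. The 12 are few, and the ratio fell with WT fold over all genes too. Polycomb genes had 20 kept, 1 lost and 2 gained promoters, with Ezh2, the H3K27 methyltransferase, at 10.9 and 10.0. Of the DNA methylation list, 5 were kept, 3 lost and 1 gained. Dnmt3b, a de novo methyltransferase, was gained at 3.62, while Dnmt3a (3.07) and Tdg (4.44) were lost. At Dnmt3a an Atxn7l3-/- peak lay 1075 bp from the start, just outside the promoter window, and with equal numbers neither list had a promoter peak.

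**Figure D4:**
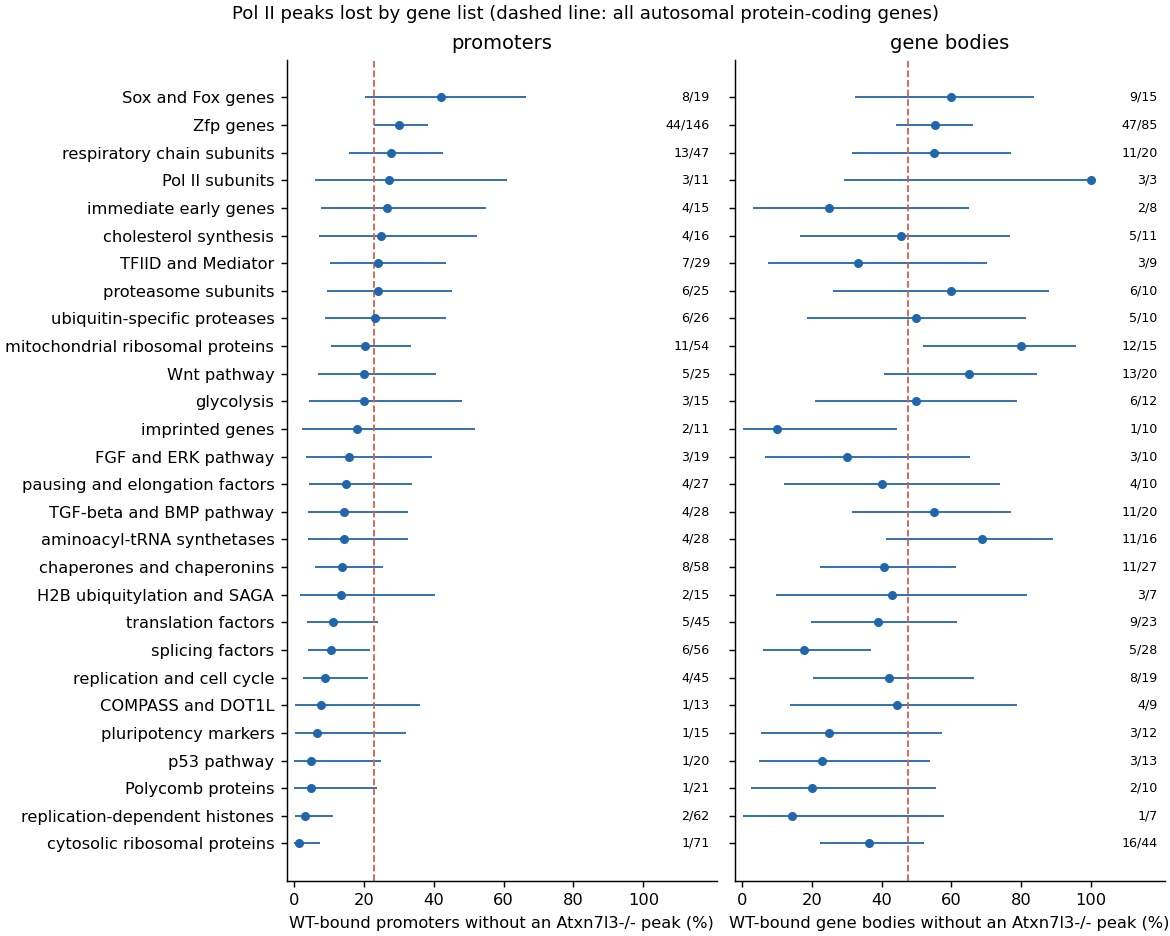
Share of WT-bound promoters (left) and gene bodies (right) without an Atxn7l3-/- peak (x axis, %) for each gene list with at least 10 WT-bound promoters, with exact 95% intervals and the counts at the right. Dashed lines mark all genes, 22.8% for promoters and 47.6% for bodies. Cytosolic ribosomal proteins (1 of 71) and histones (2 of 62) have the lowest promoter shares, and Sox and Fox genes (8 of 19) the highest.

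Among genes of stem cell identity, Klf2, a naive pluripotency factor on chromosome 8, had 18.4 in WT and 8.78 in Atxn7l3-/-, Klf4 7.05 and 11.8, and Tbx3 5.98 and 11.6. Tdgf1, the Nodal co-receptor, had 7.37 and 2.81, and its body peak of 1566 bp was in WT only. Utf1 (3.24) was lost. Esrrb, an orphan nuclear receptor, had no promoter peak, and its body was covered over 7946 bp in WT and 4558 bp in Atxn7l3-/-. Of 12 pluripotency bodies bound in WT, 9 were kept and 3 lost. Zfp42, also on chromosome 8, had 3.44 and 3.75 and counted as gained with equal numbers. Sox and Fox genes, factors of many lineages, had 11 kept, 8 lost and 5 gained promoters, 42.1% lost (20.3 to 66.5%). Sox11 (3.73) and Foxh1 (4.30), a partner of SMAD2, were lost, and Foxk1 (4.73) was gained. Of 39 Hox genes 3 promoters were kept, 1 lost and 2 gained. The 383 Zfp genes had 102 kept, 44 lost and 18 gained promoters, 30.1% lost (22.8 to 38.3%), led by Zfp281 and Zfp422 (5.72), and Zfp143, an activator at many promoters, had 20.8 and 12.6.

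In the signalling lists, the shares of promoters lost were 14.3% for TGF-beta and BMP, 20% for Wnt, 15.8% for FGF and ERK and 26.7% for immediate early genes, and the interval of each included the 22.8% lost over all promoters. The TGF-beta and BMP list had 24 kept, 4 lost and 9 gained promoters. The gained ones were 27.3% of its Atxn7l3-/- promoters (13.3 to 45.5%), an interval that includes the 15.1% over all genes. Smad5 had 8.29 and 3.57 and Smad4 8.27 and 5.47, and the receptor genes Acvr1b (4.67) and Acvr1 (4.34) were gained. The Wnt list had 20 kept, 5 lost and 2 gained promoters and 7 kept, 13 lost and 4 gained bodies. The interval of the 65% of its WT bodies lost, 40.8 to 84.6%, includes the 47.6% over all genes. With equal numbers 7 bodies were kept, 6 lost and 4 gained. Axin2, a feedback inhibitor of the pathway that GSK3 inhibition activates, lost its promoter peak (3.30, summit 1380 bp after the start) and its body peak of 925 bp, and Tcf7l2 (5.68) was gained. The FGF and ERK list, whose pathway the MEK inhibitor blocks, had 16 kept, 3 lost and 2 gained promoters. Of the immediate early genes, 11 were kept, 4 lost and 2 gained. Myc (5.30) and Mycl (4.12) were lost, Egr1 (3.05) was gained, Btg1 had 8.43 and 15.2, and Jund 10.98 and 15.7. The replication and cell cycle list had 41 kept, 4 lost and 3 gained promoters, with a higher WT fold at 26 of the 41 (2707 of 5663 over all genes). Gmnn, geminin, had 8.99 and 3.31, and Ccne2, cyclin E2, 11.3 and 7.22. Of the p53 pathway genes 19 were kept and 1 lost.

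Genes of the matrix and of cell contacts were little bound in mESCs. Of 42 collagen genes 8 had a WT promoter peak, and 6 of these were lost, 75% (34.9 to 96.8%). With equal numbers 4 of 6 were lost (22.3 to 95.7%), against 17.9% over all genes. The 8 collagen promoters lay under 7 distinct WT peaks, since Col4a1 and Col4a2 (3.68) start from a shared promoter. The WT folds of the lost collagen promoters were low, Col5a1 having 3.83, and Col18a1 (5.44 and 4.71) and Col11a2 (6.08 and 4.14) were kept. Cadherins and catenins had 6 kept and 1 lost promoters. Cdh1, E-cadherin, had 4.77 and 3.57, and Cdh2, N-cadherin (3.58), was lost. Integrins and laminins had 6 kept, 3 lost and 3 gained promoters. Of 67 protocadherin genes 1 had a promoter peak, in WT, and 21 had body peaks in both lists over the exons that these genes share. Imprinted genes had 9 kept and 2 lost promoters, and Gnas, lost at 4.04, had 5081 and 1081 bp of its body covered.

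By chromosome, the Atxn7l3-/- over WT number of peaks ran from 0.556 on chromosome 8 to 0.791 on chromosome 1, against 0.687 over all autosomes. Chromosome 8 held 1113 WT and 619 Atxn7l3-/- peaks, with an interval of the ratio from 0.503 to 0.614, and the next lowest was chromosome 15 at 0.624. It was lowest at equal peak numbers as well, at 0.828. Gained promoters were 9.65% there (6.85 to 13.1%) and lost ones 25.4%. For H2Bub1 in mESCs the same chromosome was the only autosome with fewer peaks in Atxn7l3-/- than in WT, 2622 against 2845, a ratio of 0.922 against 1.17 over all autosomes. The Pol II lists of MEFs gave 0.776 for chromosome 8 and 0.703 over all. Chromosome copy number was not measured in these files, so the part of a difference between the lines in these ratios was not tested.

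**Figure D5:**
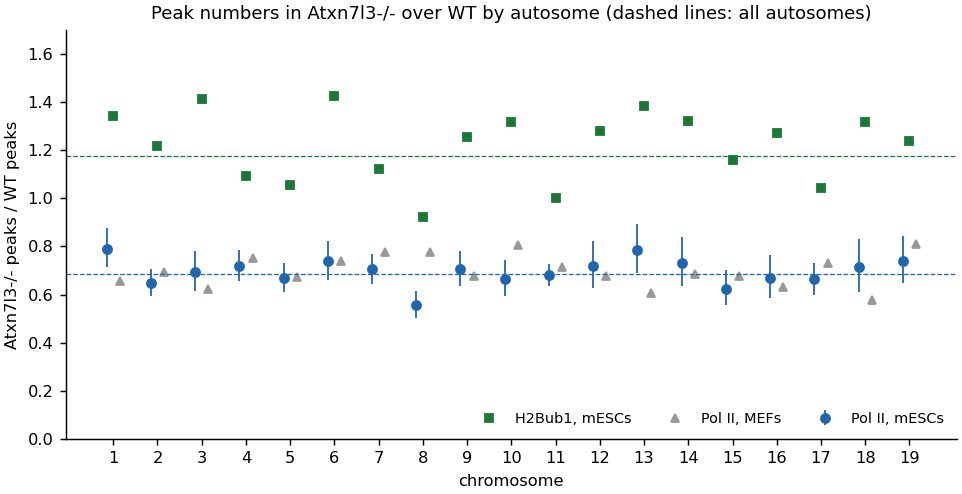
Number of Atxn7l3-/- peaks over number of WT peaks (y axis) for each autosome (x axis): Pol II in mESCs with 95% intervals for counting error, H2Bub1 in mESCs, and Pol II in MEFs. Dashed lines mark the ratios over all autosomes for Pol II (0.687) and H2Bub1 (1.17) in mESCs. Chromosome 8 is lowest for both mESC marks, at 0.556 and 0.922.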

How the data were processed

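Pol II was measured by ChIP-seq in 1 library per genotype. Per the labels, the authors used bcl2fastq 2.17.1.14, Bowtie 1.0.0 and MACS2 2.1.1.20160309 with mm10 as the build. The deposited narrow peak lists give the fold, a linear ratio of signal over local background, and the -log10 p and -log10 q of each peak, called per library. The study scaled Pol II libraries by total mapped reads. The control, the thresholds and the reads used in calling are not given in the sources used here. A longer list moves every count, so the WT list was also reduced to the size of the Atxn7l3-/- list by -log10 p. H2Bub1 lists and the MEF Pol II lists were used as further readouts.

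Peaks were set against GENCODE M21 genes of the same build, on autosomes only. An overlap of at least 1 bp made a call, and all peaks ended within their chromosomes. Intervals (95%) are exact, after Clopper and Pearson for shares and from binomial ranks for medians, and cover counting error only. Promoter sequences came from RefSeq (GRCm38). Named genes are, per list, up to 3 kept, lost and gained promoters by fold, the top 10 lost and gained ones without a peak of the other genotype within 5000 bp, and the 5 extremes of fold, ratio and covered body length. The members and 38 gene lists were chosen with earlier results of these data known. Alternatives were equal numbers, a -log10 q of at least 3, 50% overlap and joined peaks. A narrow promoter from 100 bp before to 300 bp after the start, every annotated start and a summit inside the gene body were used too. Further settings were sex chromosomes included, other fold ratios and genes apart from others. A few of the named genes and 1 promoter sequence are not reported here. The functions were tested on simulated data. Python 3.11.15, numpy 2.4.6, pandas 2.3.3, scipy 1.17.1, matplotlib 3.10.9 and pysam 0.24.0 were used.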

Additional observations from a re-analysis of the deposited data

Results flagged for a closer look

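Chromosome X was left out of the comparison, and its peaks were flagged as a signal in data that the report does not use. The Pol II list of Atxn7l3-/- mESCs held 330 peaks on chromosome X, against 146 in WT, while on the autosomes it was the shorter of the lists. Of the X-linked promoters, 88 had a peak in both lists, 3 in WT only and 116 in Atxn7l3-/- only. On chromosome Y, WT had 3 peaks and Atxn7l3-/- had 1. The labels give no sex for these lines, and with 1 library each the genotype and the line cannot be told apart.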

How the results depend on the processing

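With equal numbers of peaks, the Atxn7l3-/- over WT covered length moved from 0.602 to 0.734, the share of WT peaks overlapped from 47.4% to 59.4%, that of Atxn7l3-/- peaks from 73.9% to 65.2%, and the WT share with the summit in a promoter from 39.3% to 46.5%. Lost promoters numbered 1104 and gained ones 1599, so lost minus gained went from 664 to -495, and the median log2 ratio of kept promoters from 0.0221 to -0.0266. Lost bodies numbered 1161 and gained ones 824, a difference of 337 against 1501, and 334 gene ends were lost against 530. Promoters with at least 2 times the WT fold numbered 55. A -log10 q of at least 3 gave 0.615, 49.5%, and promoter shares of 41.9% in WT and 54.0% in Atxn7l3-/-. With X and Y the covered ratio was 0.613 and 72.9% of Atxn7l3-/- peaks were overlapped. An overlap of 50% gave 37.6% and 68.2%. Joined peaks gave 0.593 and 52.4%. The narrow promoter gave shares of 26.4% and 36.1%, and every annotated start 45.6% and 59.5%. Genes apart from others left 532 lost, 412 gained and 1902 kept promoters with a median log2 of 0.0752, and 563, 203 and 617 bodies, a smaller set by construction. A ratio of 1.5 gave 610 promoters above and 617 below. The cause of the other shifts was not tested.

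Leaving out chromosome 8 was chosen after seeing the data, as were the differences and gene ends with equal numbers. Without chromosome 8 the covered ratio moved to 0.610, and the counts of promoters, gene bodies and gene ends stayed within 1.5 times. That chromosome held only 115 of the 1673 lost and 36 of the 1009 gained promoters, so those counts could not move that far. Of 305 named genes, 26 changed class with equal numbers, 14 with the stricter q and 28 with the narrow promoter. Of 140 shares of gene lists, 133 stayed inside their interval. Many of these lists are short and their intervals wide, such as 0.63 to 80.6% for Hox genes. The settings also reuse the same peaks, so this count says little about stability. No paired analysis was possible because each group had 1 library.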

Other observations

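Some strong peaks lay outside the promoters and gene bodies of protein-coding genes. The peak with the highest Atxn7l3-/- fold, chr4:132269231-132270702, lay 4205 bp from the start of Taf12 and had 39.9 in WT and 41.6 in Atxn7l3-/-. Others lay outside protein-coding genes near Mreg (27.4 and 26.4) and Sirt4 (24.1 and 21.2), both with a counterpart in the other list. The widest WT peak spanned 12917 bp outside protein-coding genes, 251583 bp from the start of Enc1, and the next spanned 10913 bp at 53752 bp from Klf4. Non-coding genes were not looked at. Among the strongest WT peaks without any Atxn7l3-/- peak was one in the body of Smpdl3b (fold 11.5). In Atxn7l3-/-, unmatched peaks of this kind lay in the bodies of Car8 (11.6) and Abl1 (8.41) and after the end of Clec4a1, and the nearest start was that of Clec4a3 (8.88).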
